A study of Mus musculus with 8 samples.

Results

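Fatty acid synthesis and desaturation was followed through 10 genes, Acly, Acss2, Acaca, Fasn, Elovl5, Elovl6, Scd1, Scd2, Fads1 and Srebf1, in RNA sequencing of mouse pancreatic acinar cells. The members were taken by symbol from the deposited expression table, which lists 54427 genes, and all 10 were found and were abundant enough to be tested. The cells were freshly isolated primary acinar cells of wild-type (WT) mice, kept in medium with 2% fetal bovine serum, and injured with cholecystokinin octapeptide (CCK) at 1 µM for 6 hours. The group labelled AP holds 4 libraries and the group labelled AP_OCA holds 4, and the series title sets CCK-damaged cells without OCA against such cells with it. The treatment text of all 8 samples is the same and gives OCA at 2.5 µM, so that the AP cells went without OCA rests on the sample titles alone. There is no group without CCK, so every comparison below is between injured cells. Mouse age and sex are not given in the labels, and they do not say whether replicates came from separate animals. The p-values therefore measure only the spread between these samples, which may be technical.

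Fatty acid synthesis starts from acetyl-CoA in the cytosol. ATP citrate lyase (Acly) makes it from citrate and acetyl-CoA synthetase (Acss2) makes it from acetate. Acetyl-CoA carboxylase (Acaca) turns it into malonyl-CoA, and fatty acid synthase (Fasn) builds palmitate from both. Elongases of the endoplasmic reticulum lengthen the chain, stearoyl-CoA desaturases (Scd1, Scd2) place a double bond in saturated chains, and Fads1 adds double bonds to polyunsaturated ones. The transcription factor encoded by Srebf1 is a main activator of these genes. Acinar cells use fatty acids for the membranes of a large secretory apparatus, while adipocytes and liver cells are the classic tissues of high lipogenic gene expression.

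Levels are written as CPM, meaning the deposited log2 values taken back to the linear scale, freed of their offset of 0.01 and scaled to a sum of 1000000 in each library. The deposited columns had been forced to a common distribution, so a CPM here is a place in that distribution and not a share of the library's own reads, and read depth is unknown. Between 15394 and 16640 genes were above 0 in 7 libraries, and 21010 in AP_OCA replicate 2. That library stood apart in its cell type markers as well: the 10 lymphocyte markers summed to 12729.6 CPM there and to 22.4 to 76.4 CPM in the other 7, of which Cd74 gave 9263.2 CPM and Igkc, an immunoglobulin light chain, 2225.7 CPM. The acinar factors Ptf1a and Bhlha15 stood at 1.12 and 5.05 CPM in it, against at least 17.4 and 63.1 CPM in each of the others, though its 10 acinar markers still summed to 190532.9 CPM. Results are therefore given for all 8 libraries and for the 7 without AP_OCA replicate 2. In bulk RNA, fewer cells of a type and less RNA per cell cannot be told apart.

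Sequence just upstream of the start sites is shown for 3 members, Fasn because it had the lowest p of the members in the comparison of 7 libraries, Acss2 because its groups did not overlap there, and Elovl5 because it held the only E-box among the members. The stretches come from the RefSeq promoter table of build GRCm38.p6, which matched 7 of the 10 members by symbol with 9 windows of 250 bases before to 50 bases after a start site; Scd1, Scd2 and Fads1 were not matched. Each is the 250 bases before the start, 5′ to 3′ on the gene's strand, and capitals mark matches on either strand to the sterol regulatory element TCACNCCAC, the E-box CACGTG, the CCAAT box or the GC box GGGCGG. They are chr11:120824548-120824797 on the minus strand for Fasn, chr2:155517793-155518042 on the plus strand for Acss2 and chr9:77917115-77917364 on the plus strand for Elovl5.
Fasn: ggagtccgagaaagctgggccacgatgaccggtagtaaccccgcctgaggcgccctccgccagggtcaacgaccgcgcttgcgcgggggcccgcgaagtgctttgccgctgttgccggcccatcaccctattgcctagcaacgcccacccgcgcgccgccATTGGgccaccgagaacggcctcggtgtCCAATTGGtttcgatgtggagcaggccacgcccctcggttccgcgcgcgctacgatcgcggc
Acss2: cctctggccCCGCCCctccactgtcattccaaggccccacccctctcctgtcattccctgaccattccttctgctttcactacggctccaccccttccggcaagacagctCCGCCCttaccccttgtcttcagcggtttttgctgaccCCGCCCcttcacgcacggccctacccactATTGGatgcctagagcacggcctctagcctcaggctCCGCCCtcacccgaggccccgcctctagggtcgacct
Elovl5: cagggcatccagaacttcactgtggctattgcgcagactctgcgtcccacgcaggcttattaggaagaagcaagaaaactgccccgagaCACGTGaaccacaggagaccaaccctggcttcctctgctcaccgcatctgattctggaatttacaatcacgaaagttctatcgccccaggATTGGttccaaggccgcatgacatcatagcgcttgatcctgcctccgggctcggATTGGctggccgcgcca
The Fasn stretch holds 3 CCAAT boxes, starting at -90, -62 and -59 from the start site, and the last 2 overlap by 2 letters. Acss2 has 1 CCAAT box at -73 and 4 GC boxes in the stretch shown, with 1 more at position 7 after the start. Elovl5 has its E-box at -161 and CCAAT boxes at -71 and -17. Over the 9 member windows, a CCAAT box was found in 6, a GC box in 4, an E-box in 1 and the sterol regulatory element in 0. Srebf1 had more than 1 of these windows. The Acaca window, chr11:84195188-84195487, lies inside the gene's locus, chr11:84129672-84401651. Of all 32851 windows in the table, 37.4% hold a CCAAT box, 35.7% a GC box, 7.15% an E-box and 1.24% the sterol regulatory element. Only the spelling given for each motif was searched, so variant sites would be missed. These matches describe letters in a window only, and binding was not measured.

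None of the 10 members passed the test between AP_OCA and AP. Over the 7 libraries without AP_OCA replicate 2, Fasn, Srebf1 and Fads1 had the lowest p-values of the members. There the mean of Fasn was 46.2 CPM in AP_OCA against 74.5 CPM in AP, and that of Srebf1 was 36.5 CPM against 52.0 CPM. Fads1 stood at 6.18 to 8.51 CPM against 8.95 to 11.7 CPM. Over all 8 libraries the lowest p-values were those of Fads1, Srebf1 and Scd2, with Scd2 higher in AP_OCA. Scd1 stayed between 4.42 and 9.41 CPM in 7 libraries and reached 163 CPM in AP_OCA replicate 2 alone. Scd2 reached 20.0 CPM in AP_OCA replicate 4 and 17.3 CPM in AP_OCA replicate 2, against at most 5.32 CPM elsewhere. Differences were tested with limma on log2(CPM + 1) over all genes averaging 1 CPM or more, and called at a Benjamini-Hochberg adjusted p under 0.05. On that scale the fold change of a low gene is understated. In the comparison of all 8 libraries 0% of 11311 genes were called, and 1830 had an unadjusted p under 0.05. In the comparison of 7 libraries 2.44% of 10894 genes were called, 93 higher and 173 lower in AP_OCA, so that 0 of 10 members is not far from that share. There 2798 genes had an unadjusted p under 0.05.

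**Figure D1:**
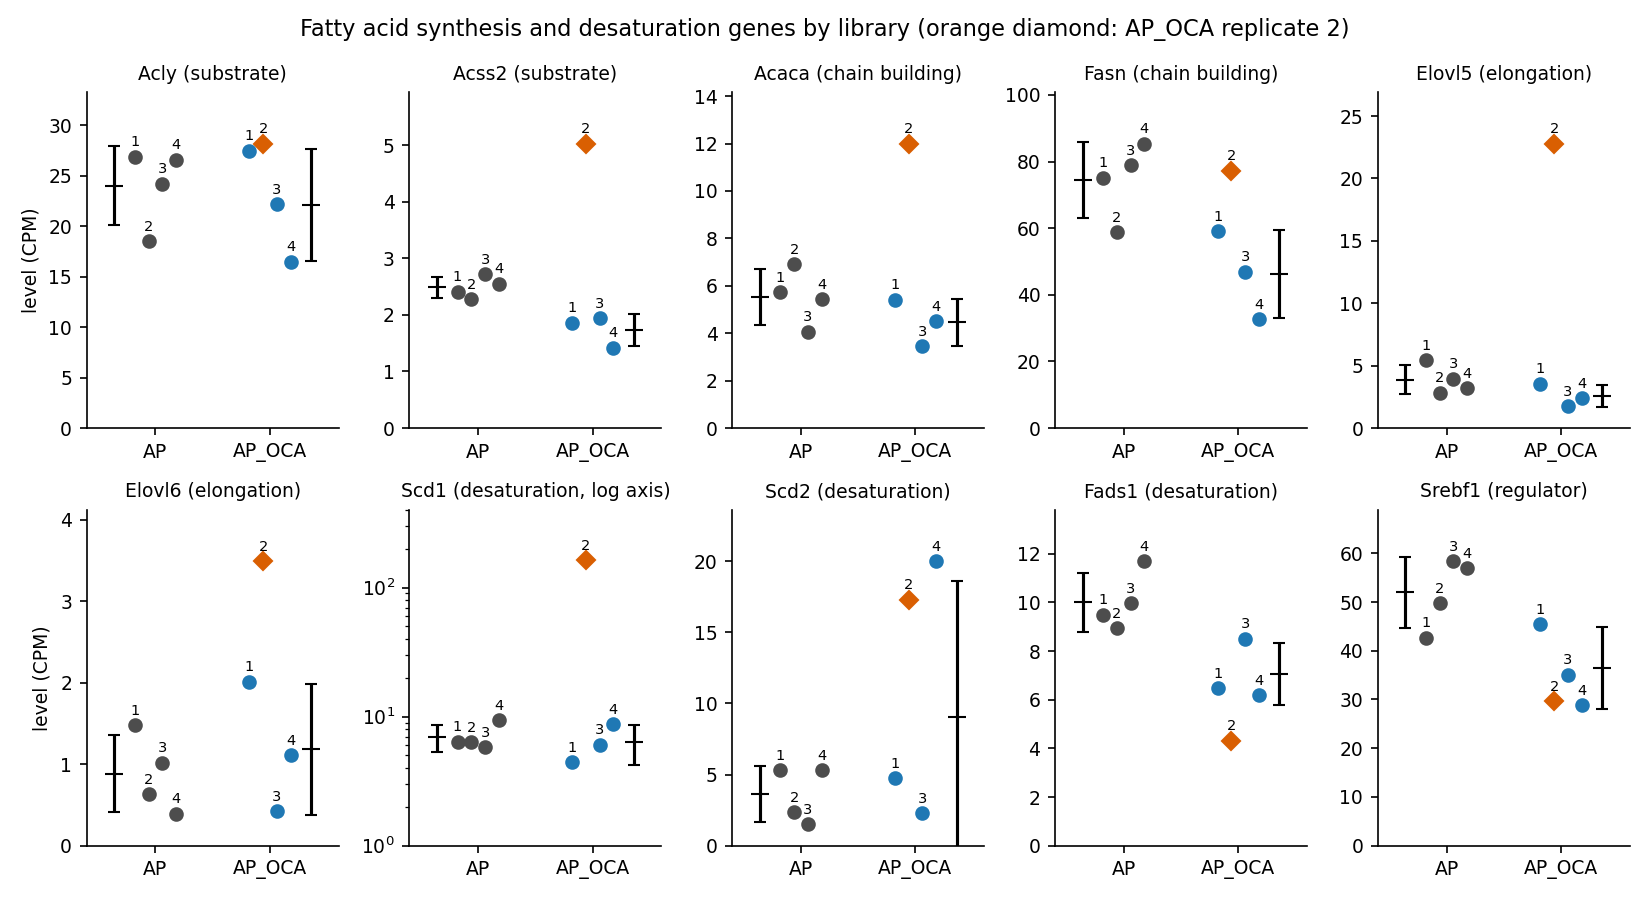
Level in CPM (vertical axes, from 0 except for Scd1, whose axis is logarithmic) of each member in the AP and AP_OCA libraries, numbered by replicate; bars give the mean ± SD of the 4 AP libraries and of AP_OCA replicates 1, 3 and 4, and the lower bar of Scd2 is cropped at 0. The orange diamond of AP_OCA replicate 2 is the highest point for Acly, Acss2, Acaca, Elovl5, Elovl6 and Scd1 and the lowest for Fads1. Of all 11311 genes tested, that library was the highest for 3674 and the lowest for 4175.

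Of the substrate enzymes, Acly (chr11:100476353-100528000, minus strand) had similar levels in both groups. It stood at 26.9, 18.5, 24.2 and 26.6 CPM in AP replicates 1 to 4 and at 27.5, 28.2, 22.2 and 16.5 CPM in AP_OCA replicates 1 to 4. The groups overlapped widely. The log2 fold change, AP_OCA over AP, was -0.13 ± 0.21 (SE, 95% interval -0.59 to 0.32, limma adjusted p = 0.732) over 7 libraries and -0.04 ± 0.24 (-0.58 to 0.50, adjusted p = 0.942) over 8. The 7-library value turned to 0.06 without AP_OCA replicate 4.

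Acss2 (chr2:155517948-155585724, plus strand) was a low gene, at 2.41, 2.28, 2.72 and 2.55 CPM in AP. In AP_OCA it stood at 1.86, 5.03, 1.94 and 1.42 CPM. AP_OCA replicates 1, 3 and 4 all lay below every AP library, and replicate 2 lay 1.85-fold above the highest of the other libraries. Over 7 libraries the means were 2.49 ± 0.187 CPM (SD, n = 4) in AP and 1.74 ± 0.283 CPM (n = 3) in AP_OCA, a log2 fold change of -0.35 ± 0.23 (-0.85 to 0.15, limma adjusted p = 0.352). With replicate 2 included the difference was -0.07 ± 0.31 (-0.76 to 0.62, adjusted p = 0.919).

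Of the chain-building enzymes, Acaca (chr11:84129672-84401651, plus strand) stood at 5.72, 6.90, 4.06 and 5.44 CPM in AP and at 5.42, 12.0, 3.46 and 4.51 CPM in AP_OCA. AP_OCA replicate 2 was the highest library and the other 3 overlapped with AP. Its log2 fold change was -0.26 ± 0.24 (-0.77 to 0.26, limma adjusted p = 0.520) over 7 libraries and 0.06 ± 0.34 (-0.71 to 0.83, adjusted p = 0.933) over 8, so the sign turned with that library.

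Fasn (chr11:120805846-120824547, minus strand) stood at 75.2, 58.7, 78.9 and 85.4 CPM in AP replicates 1 to 4. In AP_OCA replicates 1, 3 and 4 it stood at 59.0, 46.9 and 32.7 CPM, and in AP_OCA replicate 2 at 77.2 CPM. The groups met at a single pair of libraries in the comparison of 7, AP replicate 2 just under AP_OCA replicate 1. The means were 74.5 ± 11.4 CPM (SD, n = 4) and 46.2 ± 13.2 CPM (n = 3), a log2 fold change of -0.70 ± 0.21 (-1.16 to -0.25, unadjusted p = 0.00486, limma adjusted p = 0.0729), which did not pass. Over 8 libraries the difference was -0.51 ± 0.29 (-1.17 to 0.15, adjusted p = 0.387). Leaving out AP_OCA replicate 1 as well brought Fasn past the threshold (-0.90, adjusted p = 0.0266), and over the other left-out libraries the adjusted p did not exceed 0.194.

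Among the elongases, Elovl5, which lengthens mainly polyunsaturated chains, lies at chr9:77917364-77984519 on the plus strand. It stood at 5.45, 2.84, 3.97 and 3.19 CPM in AP and at 3.55, 22.8, 1.77 and 2.41 CPM in AP_OCA. AP_OCA replicate 2 was 4.19-fold above the highest of the other libraries, while replicates 3 and 4 were the lowest of all 8. The log2 fold change was -0.44 ± 0.27 (-1.02 to 0.13, limma adjusted p = 0.311) over 7 libraries and 0.25 ± 0.62 (-1.14 to 1.64, adjusted p = 0.847) over 8.

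Elovl6, which lengthens saturated chains made by fatty acid synthase, lies at chr3:129532355-129638495 on the plus strand and was the lowest member. It stood at 1.48, 0.632, 1.02 and 0.393 CPM in AP and at 2.01, 3.49, 0.421 and 1.11 CPM in AP_OCA. The deposited values fall into tied steps, and Elovl6 sat only 4 to 25 steps above 0 in the 7 libraries without AP_OCA replicate 2, so its precision is poor. Its mean over those 7 was 1.01 CPM, just inside the minimum of 1 CPM. The log2 fold change was 0.18 ± 0.32 (-0.50 to 0.87, limma adjusted p = 0.753) over 7 libraries and 0.46 ± 0.39 (-0.43 to 1.34, adjusted p = 0.551) over 8.

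Of the desaturases, Scd1 (chr19:44394455-44407879, minus strand) stood at 6.37, 6.31, 5.81 and 9.41 CPM in AP. In AP_OCA it stood at 4.42, 163.0, 6.06 and 8.74 CPM. A single library, AP_OCA replicate 2, lay 17.3-fold above the highest of the others, and the other 7 overlapped. Over 7 libraries the log2 fold change was -0.13 ± 0.25 (-0.67 to 0.41, limma adjusted p = 0.785). Over 8 it was 1.00 ± 0.94 (-1.13 to 3.13, adjusted p = 0.585), a value carried by that library. Without AP_OCA replicate 1 or AP replicate 4 the 7-library value turned to 0.08 or 0.01.

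Scd2 (chr19:44293674-44306864, plus strand) is a close relative of Scd1 in the same stretch of chromosome 19, and how reads common to both were assigned is not given in the sources used here. It stood at 5.32, 2.35, 1.52 and 5.32 CPM in AP and at 4.73, 17.3, 2.28 and 20.0 CPM in AP_OCA. AP_OCA replicates 2 and 4 were high, and replicates 1 and 3 lay within the AP range. The log2 fold change was 0.78 ± 0.61 (-0.62 to 2.17, limma adjusted p = 0.454) over 7 libraries and 1.10 ± 0.62 (-0.29 to 2.50, adjusted p = 0.380) over 8. With AP_OCA replicate 4 left out of the 7, the value was 0.02.

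Fads1 (chr19:10182888-10196877, plus strand) was the single member whose groups did not overlap with all 8 libraries in. It stood at 9.5, 8.95, 9.97 and 11.7 CPM in AP and at 6.47, 4.32, 8.51 and 6.18 CPM in AP_OCA. Every AP_OCA library lay below every AP library, replicate 2 lowest. The log2 fold change was -0.61 ± 0.23 (-1.13 to -0.09, unadjusted p = 0.0267, limma adjusted p = 0.275) over 8 libraries and -0.46 ± 0.21 (-0.91 to -0.01, unadjusted p = 0.0440, adjusted p = 0.183) over 7, so it did not pass in either comparison. Groups that do not overlap, with AP_OCA lower, were seen for 8.57% of all genes tested in 8 libraries and for 12.1% in 7. The members' counts were 1 of 10 in 8 libraries and 2 of 10 (Fads1 and Acss2) in 7.

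Srebf1 (chr11:60199089-60222581, minus strand) encodes both forms of SREBP1, which the table does not separate. It stood at 42.7, 49.8, 58.4 and 57.0 CPM in AP and at 45.5, 29.6, 35.1 and 28.8 CPM in AP_OCA. AP_OCA replicates 2, 3 and 4 lay below every AP library, and replicate 1 lay between AP replicates 1 and 2. The means of the 7 libraries were 52.0 ± 7.26 CPM (SD, n = 4) and 36.5 ± 8.44 CPM (n = 3). The log2 fold change was -0.51 ± 0.20 (-0.93 to -0.10, unadjusted p = 0.0195, limma adjusted p = 0.125) over 7 libraries and -0.58 ± 0.23 (-1.10 to -0.07, unadjusted p = 0.0312, adjusted p = 0.285) over 8. Messenger RNA of Srebf1 does not measure the cleaved, active protein.

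Set side by side, the members leaned lower in AP_OCA over 7 libraries but were evenly split over 8. Of the 10, 8 had a negative and 2 a positive log2 fold change over 7 libraries, with a median of -0.30 against 0 for all genes tested. Over 8 libraries the split was 5 and 5, with a median of 0.01 against -0.01. At an unadjusted p under 0.05 and lower in AP_OCA there were 3 members over 7 libraries (Fasn, Srebf1, Fads1), where 13.9% of all genes were. There were 2 members over 8 libraries (Fads1, Srebf1), where 8.87% of all genes were. AP_OCA replicate 4 was the lowest of the 7 libraries for 5 of the 10 members, and the highest for Scd2. Of all 10894 genes tested, it was the lowest for 3378 and the highest for 2893.

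Several of these differences changed once trends on transcript length and base composition were removed. Fasn, at 57.9% GC and 10050 bases in its longest coding transcript, exceeded 88.2% of the genes tested in GC content and 97.8% in length, and Srebf1, at 58.4% GC, exceeded 90.4% in GC content. Fads1 lay nearer the middle, at 52.2% GC and 3460 bases, and exceeded 58.5% in GC content and 57.1% in length. With a trend on length and GC content removed from each of the 7 libraries, the log2 fold change of Fasn was -0.25 ± 0.15 (-0.58 to 0.07, limma adjusted p = 0.371). That of Srebf1 was -0.09 ± 0.14 (adjusted p = 0.764) and that of Fads1 was -0.22 ± 0.18 (adjusted p = 0.522). Acss2 came to -0.16, Acaca to -0.07 and Acly to 0.15. Elovl5, at 44.8% GC, moved the other way, to -0.60 ± 0.26 (-1.16 to -0.04, adjusted p = 0.220). The differences in Fasn, Srebf1 and Fads1 were smaller after this step, and none of the 10 members passed. The step would also take out a difference between the groups that follows length or GC content.

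**Figure D2:**
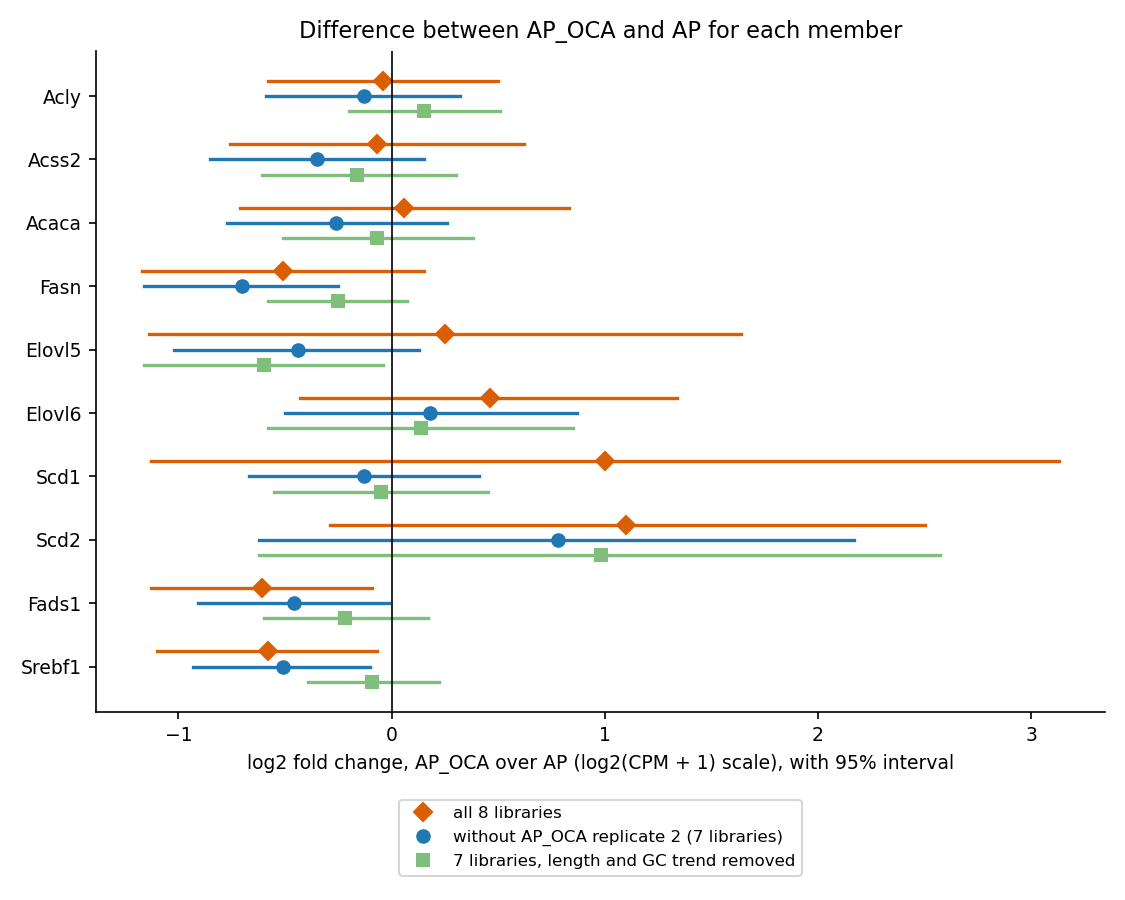
Log2 fold change of each member, AP_OCA over AP, on the log2(CPM + 1) scale (horizontal axis) with its 95% interval, for all 8 libraries, for the 7 without AP_OCA replicate 2, and for those 7 after removal of the length and GC trend. Over 8 libraries the intervals of Scd1 and Scd2 are the widest. The intervals of Fasn, Srebf1 and Fads1 lie below 0 for the 7 libraries but cross 0 once the trend is removed. The interval of Elovl5 crosses 0 for the 7 libraries and lies below 0 once the trend is removed.

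Between members, levels were compared per kilobase of the longest coding transcript. In AP the order was Srebf1 at 12.1 ± 1.69 CPM per kilobase (SD, n = 4), Fasn at 7.42 ± 1.13, Acly at 5.43 ± 0.884 and Fads1 at 2.90 ± 0.346, where the ranges of mean ± SD of Fasn and Acly overlapped. Scd1 at 1.44 ± 0.340 and Elovl5 at 1.39 ± 0.416 followed and did not differ beyond their spread. Acss2 at 0.849 ± 0.0636, Scd2 at 0.665 ± 0.364 and Acaca at 0.582 ± 0.123 came next, where Scd2 did not differ from either neighbour beyond its spread, and Elovl6 was last at 0.148 ± 0.0797. In AP_OCA replicate 2 this order was different: Scd1 led at 33.7 CPM per kilobase, followed by Elovl5 at 8.20, Fasn at 7.68 and Srebf1 at 6.87.

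AP_OCA replicate 2 thus carried the widest swings of these genes. The 10 members together summed to 362.9 CPM there, against 122.4 to 207.0 CPM in the other 7 libraries, and Scd1 made up 44.9% of that sum against 2.76% to 7.14% elsewhere. Scd1 and Elovl5 lay over 2-fold above the highest of the other libraries, which was true of 13.8% of all genes tested. None of the members lay over 2-fold below the lowest of the others, which was true of 20.4% of all genes. Of 61 related lipid genes described below, 4 lay over 2-fold above and 13 over 2-fold below the other libraries there. Named after their values were seen, Thrsp, a small protein of lipogenic tissues, stood at 41.4 CPM against at most 1.70 CPM elsewhere, while its relative Mid1ip1 stood at 4.89 CPM against at least 27.5 CPM and Acacb at 2.71 CPM against at least 10.4 CPM. Fasn at 77.2 CPM and Acly at 28.2 CPM were close to the AP libraries, and Fads1 and Srebf1 were low.

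Markers of adipocytes and of several other cell types moved with these values. The 9 adipocyte markers summed to 483 CPM in AP_OCA replicate 2 against 19.2 to 41.2 CPM in AP and 32.1 to 93.4 CPM in the other AP_OCA libraries, and 8 of the 9 were above all other libraries. Adipoq, the adipocyte hormone adiponectin, stood at 37.3 CPM against 0 to 1.29 CPM, and the adipokine gene Retn at 21.9 CPM against 0 to 2.41 CPM. The most abundant were Cfd at 274 CPM against at most 31.0 CPM and Fabp4 at 114 CPM against at most 54.2 CPM. Pparg, a regulator of adipocytes, was an exception at 0.407 CPM, the lowest of all libraries. All 10 lymphocyte and all 10 macrophage markers were also above all other libraries, and their sums were 12729.6 CPM and 1060.4 CPM, the second against 60.8 to 134 CPM elsewhere. All 7 islet markers and 8 of 10 acinar markers were below all others. Of the acinar markers, however, Cel and Cela2a were in effect tied with AP_OCA replicate 4. Cel stood at 19398.4 against 19398.6 CPM and Cela2a at 36361.1 against 36361.5 CPM. Stellate cell markers summed to 386 CPM there against 109 to 232 CPM elsewhere, with 3 of 7 above all others and 1 below. Endothelial markers summed to 229 CPM against 35.5 to 114 CPM, with 4 of 6 above all others. The 5 ductal markers summed to 22.2 CPM against 136 to 312 CPM, with 3 below all others. The part of other cell types in the Scd1 and Elovl5 values was not tested.

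**Figure D3:**
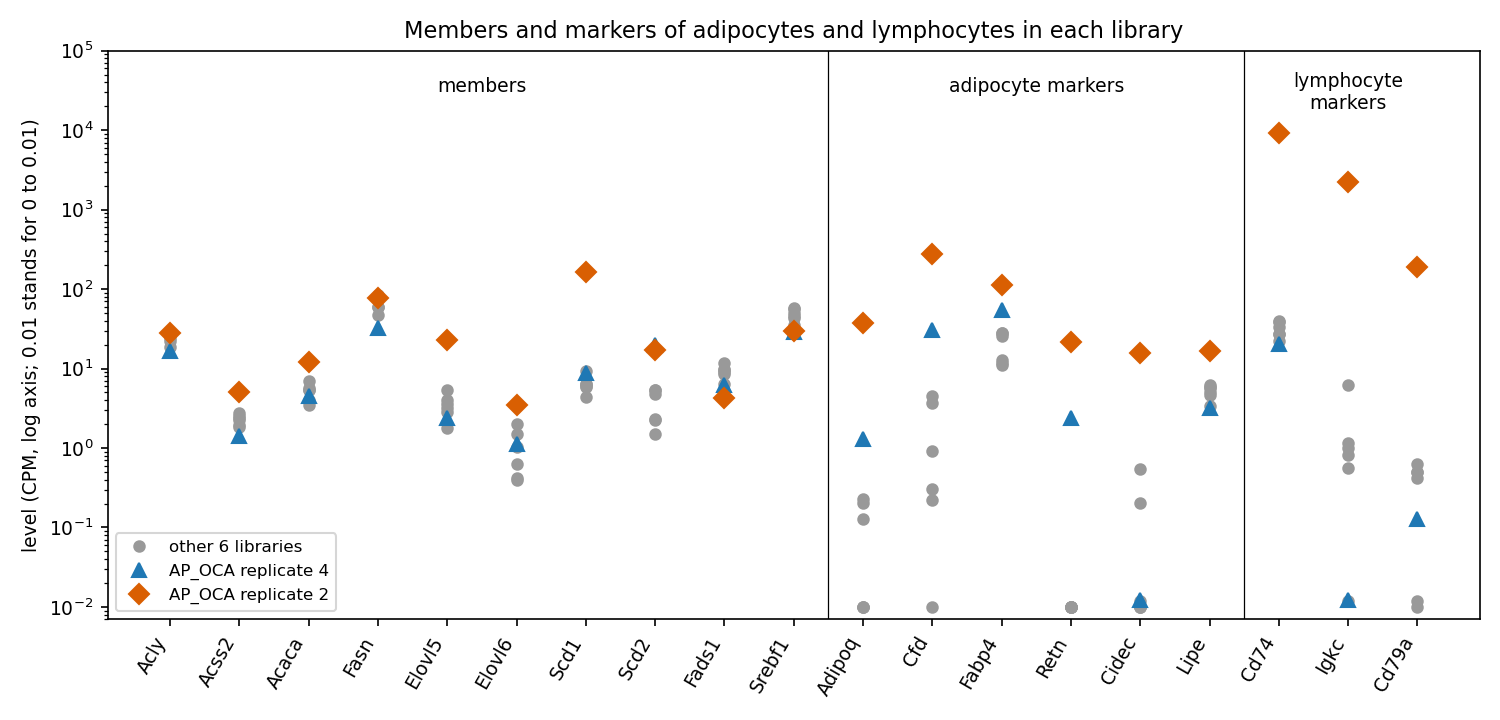
Level in CPM (vertical logarithmic axis, where 0.01 stands for values from 0 to 0.01) of the 10 members, 6 adipocyte markers and 3 lymphocyte markers in each library (horizontal axis: gene). AP_OCA replicate 2 (orange) is above the other libraries for Acly, Acss2, Acaca, Elovl5, Elovl6, Scd1 and all markers plotted. Of the adipocyte markers, Pparg, Plin1 and Lep are not plotted, and Pparg was lowest in AP_OCA replicate 2. AP_OCA replicate 4 (blue) is above the remaining 6 for Scd2, Adipoq, Cfd, Fabp4 and Retn.

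AP_OCA replicate 4 was high for Scd2 and for part of the adipocyte list. Scd2 was 3.76-fold above the highest of the 6 libraries left when AP_OCA replicate 2 is set aside, and made up 16.4% of the summed members there. It was the only member over 2-fold above those 6, which was true of 2.60% of all genes tested, and none lay over 2-fold below them, which was true of 5.87%. Of the 9 adipocyte markers 4 were above those 6 libraries: Fabp4 at 54.2 CPM, Cfd at 31.0 CPM, Retn at 2.41 CPM and Adipoq at 1.29 CPM. The other 5 were not raised there: Lipe at 3.19 CPM was below all 6, Plin1 was at 0, Cidec at 0.0122 CPM, Lep at 0.129 CPM and Pparg at 1.22 CPM. Of the 4 adipocyte markers abundant enough to be tested, 2 were above those 6 libraries, as were 2893 of all 10894 genes tested. Lymphocyte markers summed to 22.4 CPM and macrophage markers to 75.0 CPM there, not raised as in AP_OCA replicate 2. Below all of those 6 libraries were 5 of 6 endothelial and 5 of 7 stellate markers. Islet markers summed to 1717.2 CPM, and acinar markers to 214130.6 CPM, the lowest of the 7 libraries. Scd1 at 8.74 CPM lay within the range of the others. The part of other cell types in the Scd2 value was not tested.

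Other marker lists also moved with the groups over 7 libraries. The 7 stellate cell markers summed to 109 to 163 CPM in AP_OCA against 166 to 232 CPM in AP, with Col3a1 and Dcn the most abundant. Of the 7, 4 had a negative log2 fold change with groups that did not overlap (Col1a1, Col1a2, Col3a1, Pdgfrb) and 3 had a positive one (Dcn at 0.46, Lum and Rgs5 at 0.07). Groups apart with AP_OCA lower were seen for 12.1% of all genes tested. Col1a1 passed the test (-1.38 ± 0.32, limma adjusted p = 0.0488). On leaving out 1 more library, Col1a1 passed in 2 of 7 cases, with an adjusted p of 0.126 at the highest. The 5 ductal markers summed to 263 to 312 CPM in AP_OCA against 136 to 215 CPM in AP, with Krt19 and Spp1 the most abundant. None of the 4 ductal genes tested passed, 3 were higher with groups apart, and Sox9 gave -0.49. Groups apart with AP_OCA higher were seen for 1208 of all 10894 genes tested. The 10 acinar markers summed to 214130.6 to 256397.7 CPM in AP_OCA against 261836.4 to 266542.8 CPM in AP, and none passed. Their values were split 5 to 5 in sign with a median of 0.02: the most abundant, Pnlip and Cela1, gave -0.02 and 0.05, while Cel gave -0.61 ± 0.15 (limma adjusted p = 0.0513), Cpa1 -0.29 and Cela2a -0.27. The 6 endothelial markers summed to 35.5 to 84.6 CPM in AP_OCA against 84.5 to 114 CPM in AP, ranges that barely met. Of these 6, 5 had an unadjusted p under 0.05, against 2798 of all 10894 genes tested, and none passed. Cdh5 (-1.15 ± 0.32, with groups apart), Plvap, Kdr and Pecam1 were lower and Egfl7 was higher. Summed macrophage markers overlapped, but Cd68 (-1.11 ± 0.28, limma adjusted p = 0.0517) and Adgre1 (-0.71 ± 0.25, adjusted p = 0.108) had every AP_OCA library below every AP library. Sums of the islet, lymphocyte and mesothelial lists overlapped. The part of these shifts in the lower Fasn, Srebf1 and Fads1 values was not tested.

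Genes around the pathway were read through 4 further lists of 75 genes, of which 61 were abundant enough to be tested. Over 7 libraries 2 fell, none rose and 59 did not pass, a share of 3.28% against 2.44% of all genes. Over 8 libraries 0 passed with limma, and 8 of the 61 had an unadjusted p under 0.05, as did 1830 of all 11311 genes tested. Over 7 libraries 13 of the 61 had one, as did 2798 of all 10894 genes tested. Acss1, the mitochondrial acetyl-CoA synthetase, stood at 6.45, 7.18, 8.88 and 6.79 CPM in AP and at 4.0, 2.98 and 2.08 CPM in AP_OCA replicates 1, 3 and 4 (log2 fold change -1.07 ± 0.24, limma adjusted p = 0.0406), with 10.7 CPM in AP_OCA replicate 2. Fads6, a member of the fatty acid desaturase family, stood at 5.50, 6.47, 8.13 and 5.08 CPM in AP and at 3.09, 1.56 and 2.54 CPM in those AP_OCA libraries (-1.11 ± 0.25, adjusted p = 0.0419), with 0.595 CPM in AP_OCA replicate 2. Both calls were lost when any 1 of the 4 AP libraries or AP_OCA replicate 3 or 4 was left out, with adjusted p from 0.0739 to 0.108 for Acss1 and from 0.0581 to 0.109 for Fads6. Neither passed once the trend on length and GC content was taken out (adjusted p = 0.0591 and 0.104). Neither passed without a filter on low values, a setting that called no gene. Of 190 values of the named related genes under alternatives, 20 no longer passed, all of them values of Acss1 or Fads6.

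In the list of substrate supply and cofactors, 1 of 13 tested genes fell (Acss1) and the median log2 fold change was 0.02. Acacb, the acetyl-CoA carboxylase of mitochondria, stood at 22.8, 26.0, 30.5 and 24.2 CPM in AP and at 18.9, 15.1 and 10.4 CPM in AP_OCA replicates 1, 3 and 4. Its groups did not overlap, and it narrowly missed the threshold (-0.79 ± 0.21, limma adjusted p = 0.0587). Hcfc1, a transcriptional cofactor, gave -0.73 ± 0.20 (adjusted p = 0.0618). Without AP_OCA replicate 1 both passed, at adjusted p = 0.0223 and 0.0255. Taking out the length and GC trend brought them to -0.35 (adjusted p = 0.245) and -0.34 (adjusted p = 0.234). The citrate carrier Slc25a1 and the NADPH source Me1, named here after their values were seen, gave 0.06 ± 0.22 and 0.10 ± 0.21.

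In the list of other elongation and desaturation enzymes, 1 of 11 fell (Fads6) and the median was 0.27, with 7 values positive and 4 negative; over 8 libraries the median was -0.04. Fads2, the desaturase that works with Fads1 on polyunsaturated chains, stood at 9.03, 7.02, 11.7 and 10.2 CPM in AP and at 2.87, 1.07, 6.16 and 4.82 CPM in AP_OCA. Every AP_OCA library lay below every AP library, as with Fads1, and over 7 libraries the difference missed the threshold (-0.92 ± 0.26, limma adjusted p = 0.0618). Fads3, a neighbour of both in the genome, gave -0.56 ± 0.25 (adjusted p = 0.168), and -0.28 after removal of that trend.

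In the list of acyl-CoA and glycerolipid synthesis, 0 of 17 passed, 4 had an unadjusted p under 0.05 and the median was 0.10. An unadjusted p under 0.05 was seen for 2798 of all 10894 genes tested. Gpam, which starts glycerolipid synthesis in mitochondria, gave -0.80 ± 0.30 (limma adjusted p = 0.121). Acsl4, which activates arachidonic acid, gave 0.76 ± 0.29 (adjusted p = 0.123), and the acyltransferase gene Agpat5 gave 0.58 ± 0.22 (adjusted p = 0.126).

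In the list of SREBP processing and lipogenic regulators, 0 of 20 passed and 3 had an unadjusted p under 0.05, with 15 of 20 values negative and a median of -0.17. Of all 10894 genes tested, 2798 had an unadjusted p under 0.05. Srebf2, the relative of Srebf1 that mainly drives cholesterol synthesis, stood at 45.7, 46.3, 49.0 and 48.4 CPM in AP. In AP_OCA it stood at 32.6, 26.3, 31.7 and 17.9 CPM. The groups lay clearly apart, the AP libraries close together and AP_OCA replicate 4 lowest, and over 7 libraries the difference just missed the threshold (-0.81 ± 0.21, limma adjusted p = 0.0521). It passed without AP_OCA replicate 1 (-0.96, adjusted p = 0.0242). Once that trend was taken out, its log2 fold change was -0.38. Mbtps1, a protease that cleaves SREBP, gave -0.43 ± 0.18 (adjusted p = 0.156) and -0.14 after removal of the trend. Insig2, which holds SREBP in the endoplasmic reticulum, gave -0.47 ± 0.20 (adjusted p = 0.163). After removal of the trend Insig2 moved further from 0, to -0.59 ± 0.18 (limma adjusted p = 0.107).

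**Figure D4:**
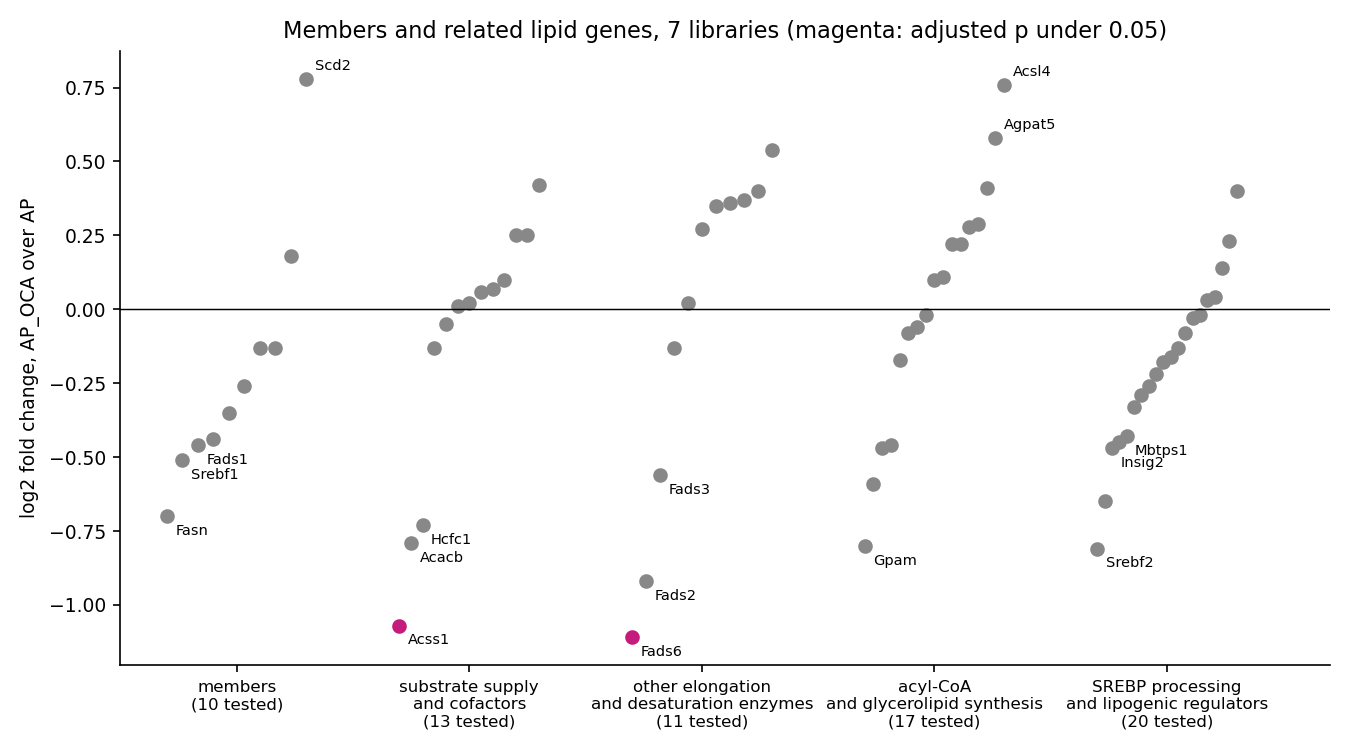
Log2 fold change over 7 libraries, AP_OCA over AP (vertical axis), of the 10 members and of the tested genes of the 4 further lists (horizontal axis: list, genes ordered by value); magenta points passed at an adjusted p under 0.05. Acss1 and Fads6 are the 2 magenta points, and Fasn, Srebf1 and Fads1 are the lowest of the members.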

How the data were processed

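RNA sequencing of 8 libraries was analysed (4 AP, 4 AP_OCA), grouped by the sample titles. Per the labels, libraries were made from 2 µg of total RNA with a SMARTER kit and the build was mm10, per the submitters' processing notes; the aligner, counter and annotation are not given in the sources used here. The authors deposited log2 values. Their lowest value, -6.64, is the log2 of 0.01, and their highest, 20.57, is shared by all columns, so each was read as a quantile-normalised count-like number plus 0.01. Values were taken back to the linear scale, the offset removed, and each library scaled to 1000000 (CPM). This step was needed because the file holds neither raw counts nor linear values.

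Genes averaging 1 CPM or more were tested on log2(CPM + 1) with limma 3.58.1 in R 4.3.3 (trend and robust moderation, two-sided, Benjamini-Hochberg adjustment over all genes tested, threshold 0.05), and the scripts were tested on simulated data. Depth is unknown: tied step number 3 above 0, like a count of 3, corresponded to 0.206 to 0.313 CPM in 7 libraries and to 0.000455 CPM in AP_OCA replicate 2, and such limits cover counting error only. Loci, transcript lengths and GC content came from GENCODE annotation of GRCm38, the build also called mm10; 99.5% of tested genes had both. The length and GC trend was a natural spline of 4 degrees of freedom on each, fitted per library. Over all 8 libraries same-numbered samples did not deviate together, so the main comparison has no block. That check included AP_OCA replicate 2 and was not run on the 7 libraries alone.

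The members and lists were chosen with earlier results of these data known, as was the comparison without AP_OCA replicate 2. All 10 members are named; from each related list, the genes that passed and, up to 3 in all, those with the lowest p over 7 libraries. Alternatives were median centring, other pseudocounts and filters, the deposited log2 values as they stand, limma without trend, a replicate block, the length and GC trend, and leaving out each library.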

Additional observations from a re-analysis of the deposited data

Results flagged for a closer look

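Within each group of 4 libraries, a library was singled out where its gap to the nearest other, divided by the range of the group, exceeded Dixon's 95% critical value. This was asked of 44 pairs of a gene and a group, for the members and the named related genes, and chance alone singles out about 1 in 20. It held for 5, of which 3 were AP_OCA replicate 2. In that library Scd1, the stearoyl-CoA desaturase, stood at 163 CPM, the elongase gene Elovl5 at 22.8 CPM and the acetyl-CoA synthetase gene Acss2 at 5.03 CPM, each above the other AP_OCA libraries. In AP replicate 4, Scd1 stood at 9.41 CPM, above the other AP libraries, and the protease gene Mbtps1 at 31.2 CPM, below them. The cell type markers that moved with AP_OCA replicate 2 are given beside the Scd1 and Elovl5 values, and their part was not tested.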

How the results depend on the processing

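Over 8 libraries, 0 members and 0 genes were called under every alternative run, except that leaving out each library gave 0 to 266 genes, 266 being the count without AP_OCA replicate 2. Over 7 libraries, the count of 266 genes became 156 with a pseudocount of 0.1 CPM, 0 with no filter, 113 on the deposited log2 values, 14 without a trend, 123 with the length and GC trend removed, and 7 to 973 on leaving out each library: 9, 12, 7 and 8 without AP replicates 1 to 4, and 973, 14 and 119 without AP_OCA replicates 1, 3 and 4. The cause was not tested. Members called over 7 libraries ranged from 0 to 1 on leaving out each library (Fasn without AP_OCA replicate 1) and stayed at 0 under the other alternatives except the block. Over all 8 libraries same-numbered samples did not deviate together (r from -0.166 to 0.116), a check not run on the 7 libraries alone. With the replicate block 559 genes and 1 member were called over 7 libraries (Fasn, -0.81, limma adjusted p = 0.0443), and 0 over 8 libraries.

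Over 8 libraries, the sign turned with the length and GC trend removed for Acly (0.29), Acss2 (0.16) and Fasn (0.06). Over left-out libraries the log2 fold change spanned -0.15 to 0.12 for Acly, -0.35 to 0.09 for Acss2, -0.26 to 0.26 for Acaca, -0.44 to 0.59 for Elovl5 and -0.13 to 1.51 for Scd1. Over 7 libraries, Acly turned to 0.15 with that trend removed and spanned -0.30 to 0.06 over left-out libraries, and Scd1 spanned -0.35 to 0.08. Of 154 member values under alternatives over 7 libraries, 4 turned sign and 2 came to pass; of 190 for the named related genes, 20 no longer passed, 7 came to pass and 0 turned sign. Elovl6 fell below the filter in some settings and has no value there.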
